A study of Mus musculus with 6 samples.

Results

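The 37 genes described here encode the proteins that remove DNA interstrand crosslinks and complete the repair by homologous recombination or by translesion synthesis. They were taken as a named list by a rule that used no measured value, although earlier results of these data were known. All 37 were found among the 54532 genes of the table. The list holds 8 genes of the Fanconi anaemia (FA) core complex, 3 of the ubiquitin cycle around it, the FANCD2-FANCI pair, 5 BRCA proteins and partners, 7 recombination paralogues and motor proteins, 6 nucleases or nuclease scaffolds and 6 genes of translesion synthesis. RNA-seq was measured in ovarian granulosa cells (GCs), the somatic cells that surround the oocyte, of female ICR mice. The mice were 3 weeks old, and every mouse had received 5 IU of PMSG, a gonadotropin that drives follicle growth, 22 h before treatment. The CTX group was given a single intraperitoneal dose of 120 mg/kg cyclophosphamide, the PBS group an equal volume of buffer, and GCs were taken 6 h after that. With 3 samples in a group and the GCs of 3 mice pooled in each sample, the spread between mice within a pool was not measured.

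Cyclophosphamide is a prodrug whose nitrogen mustard metabolite joins the bases of opposite DNA strands. Such a crosslink blocks a replication fork, the FA core complex then attaches ubiquitin to FANCD2 and FANCI, and nucleases cut on either side of the lesion. Translesion polymerases copy past the unhooked base, and the BRCA proteins and their recombination partners rebuild the broken strand from the sister chromatid. Ovarian reserve depends on this pathway, and loss of several of its genes depletes germ cells in mice and humans.

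Values are FPKM, fragments per kilobase of gene scaled to sequencing depth, a scale that allows levels to be compared between genes. CTX was set against PBS with limma on log2(FPKM + 0.1) over the 14463 genes with a mean of at least 0.5 FPKM, and p-values were adjusted over all of them by Benjamini-Hochberg. A differentially expressed gene (DEG) had a change over 2-fold and an adjusted p below 0.05. All 37 genes passed the filter on low values. Reads rebuilt from FPKM and gene length numbered 16005869 to 18455011 per sample, and a single gene of the list held 74 to 2234 of them, which by counting alone gives an error of 11.6% at the lowest and 2.12% at the highest. The median level of the 37 genes lay at the 41.9th percentile of all genes tested. Fewer expressing cells and less RNA per cell cannot be told apart in these bulk samples.

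CTX replicate 2 stood apart from the other samples. It lay at 74.7 on the first principal component (46.8% of the variance) and the other 5 samples between -26.6 and 13.2. Granulosa markers were present in every sample, and 8 of them summed to 10717 to 11860 FPKM in PBS and 9604 to 10229 FPKM in CTX. Of these 8, 5 (62.5%) were lower and 1 (12.5%) higher in CTX without overlap, against 14.1% and 15.0% of all genes tested. Their median log2 fold change was -0.43. Inha was between 8556 and 10402 FPKM, although Cyp19a1, the aromatase gene, was at 6.61 FPKM in CTX replicate 2 and at 32.5 to 62.4 FPKM elsewhere. The summed level of 7 theca and stroma markers was 10.6 FPKM in that sample against 63.8 to 107 in the other samples, and that of 8 leukocyte markers was 57.0 against 16.9 to 29.1. Endothelial markers summed to 2.60 FPKM in CTX replicate 2 and to 5.67 to 7.15 elsewhere, and oocyte markers ranged from 34.3 to 85.7 over both groups. Of the 8 leukocyte markers only 3 passed the filter on low values, and the highest had a mean of 20.7 FPKM over the 6 samples. Ptprc, found on all leukocytes, stayed below 0.1 FPKM in every sample, and Cd3e was at 0 in PBS replicate 3. The part of these differences in the results below was not tested, and values without CTX replicate 2 are given where a result turned on it.

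None of the 37 genes was a DEG, where 0.961% of all genes tested were. At any size of change 1 of the 37, Rev1, had an adjusted p below 0.05 (limma, Benjamini-Hochberg), against 1.76% of all genes tested, of which 1.40% were higher and 0.360% lower after CTX. Without the adjustment 13 genes (35.1%) had a p below 0.05, 9 of them higher and 4 lower, and the share among all genes tested was 19.6%. In 12 genes (32.4%) no CTX sample was as low as any PBS sample, against 15.0% of all genes, and in 5 genes (13.5%) no CTX sample was as high as any PBS sample, against 14.1%. The median log2 fold change was 0.05 over the 37 genes and -0.01 over all genes tested, with a range of -0.57 to 0.60 in the list.

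The 95% confidence interval of the change stayed within a 2-fold change in either direction for all 37 genes, which held for 76.1% of all genes tested, and within 1.5-fold for 26 of the 37 (54.2% of all genes tested). The median coefficient of variation between samples was 6.09% in PBS and 10.7% in CTX, and it was larger in CTX for 23 of the 37 genes (62.2%, against 69.1% of all genes tested).

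**Figure D1:**
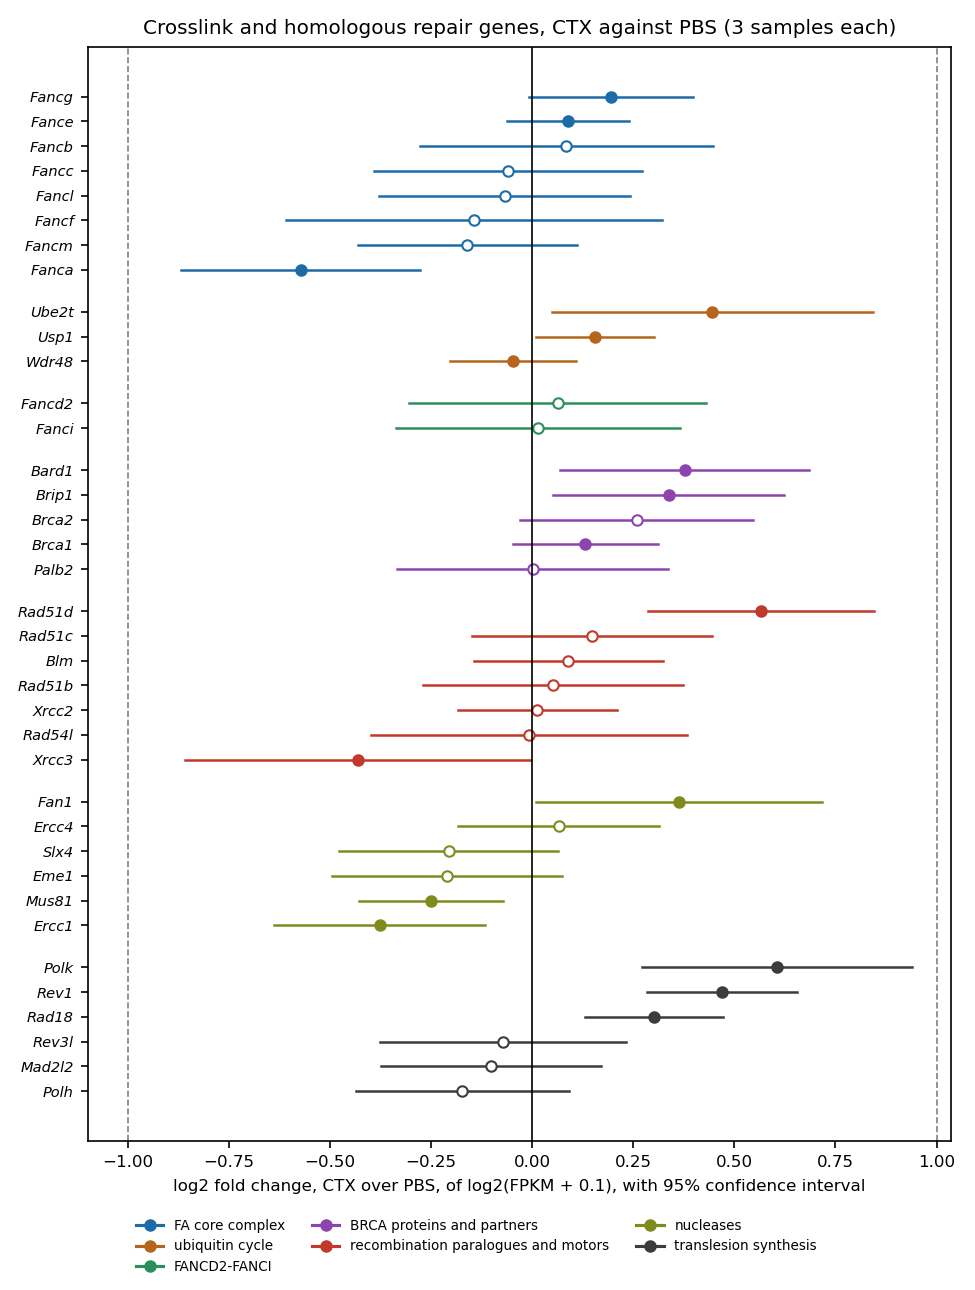
Fitted log2 fold change (CTX over PBS, 3 samples each) of the 37 genes with its 95% confidence interval, ordered by role. Filled points mark genes whose CTX and PBS samples do not overlap, open points those that overlap, and the dashed lines mark a 2-fold change, which no interval reaches.

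Translesion synthesis held the gene that passed the test. Rev1 encodes a scaffold of the translesion polymerases that also inserts C opposite damaged bases. It lies on the minus strand at chr1:38052786-38129801 (mm10) and was at 4.70, 4.89 and 4.50 FPKM in PBS replicates 1, 2 and 3 and at 6.57, 6.81 and 6.26 FPKM in CTX replicates 1, 2 and 3. Every CTX sample was above every PBS sample, and the spread within a group was small beside the gap between groups. Rev1 rose by 0.47 on the log2 scale (SE 0.08, limma adjusted p = 0.0435), a 1.38-fold change. Of its exon bases 26.6% are shared with Eif5b on the opposite strand, and no source states that strand was used in counting, so reads from the shared part cannot be told apart. Eif5b itself was at 12.5 to 13.1 FPKM in PBS and 12.8 to 14.9 FPKM in CTX, and its groups overlapped (log2 fold change 0.12, SE 0.08, limma adjusted p = 0.416). The adjusted p of Rev1 lay between 0.00148 and 0.198 over 17 other fits and passed in 7 of them, and its log2 fold change stayed between 0.39 and 0.50. It was 0.174 to 0.198 without any 1 PBS sample, 0.0619 without CTX replicate 1 and 0.119 without CTX replicate 3, all above the threshold, and 0.0455 without CTX replicate 2.

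Polk encodes a polymerase that extends past bulky minor groove lesions. Its levels were 3.93, 3.99 and 3.86 FPKM in PBS and 7.21, 5.004 and 6.04 FPKM in CTX. The PBS samples were nearly equal, and the lowest CTX sample, replicate 2, was still above all of them. The log2 fold change of 0.60 (SE 0.14), the largest of the list, had a limma adjusted p of 0.103. Without CTX replicate 2 it was 0.74 (SE 0.10) with a limma adjusted p of 0.0196. No other fit that left out a sample passed. The limma adjusted p of Polk was 0.0805 without CTX replicate 1, where the log2 fold change was 0.48, and 0.239 without CTX replicate 3. Without any 1 PBS sample it was 0.270 to 0.344.

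Rad18 encodes the ubiquitin ligase that marks PCNA at stalled forks and so recruits these polymerases. It was at 6.47, 6.68 and 6.60 FPKM in PBS and at 7.70, 8.32 and 8.41 FPKM in CTX. The groups did not overlap, and the log2 fold change was 0.30 (SE 0.07, limma adjusted p = 0.109). The other 3 genes overlapped between groups. Polh, the polymerase for ultraviolet lesions, had a mean of 4.98 FPKM over the 6 samples and Rev3l, the catalytic subunit of polymerase zeta, of 3.83 FPKM. Mad2l2, the accessory subunit of polymerase zeta and the second highest gene of the list, was at 8.54, 8.84 and 10.1 FPKM in PBS and at 9.72, 7.85 and 8.07 FPKM in CTX, and CTX replicate 1 lay inside the PBS range. Their log2 fold changes were -0.17, -0.07 and -0.10. Levels were also summed within each of the 7 roles, and how often sums of other genes lie apart was not tested. The 6 genes of translesion synthesis summed to 33.3 to 33.9 FPKM in PBS and 35.7 to 40.3 FPKM in CTX. Without Polk the groups stayed apart, at 29.3 to 30.0 against 30.7 to 33.1 FPKM. Without Rev1 they overlapped, at 28.4 to 29.2 and 28.9 to 33.7 FPKM, as they did without Rad18, at 26.6 to 27.5 and 27.4 to 32.6 FPKM.

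**Figure D2:**
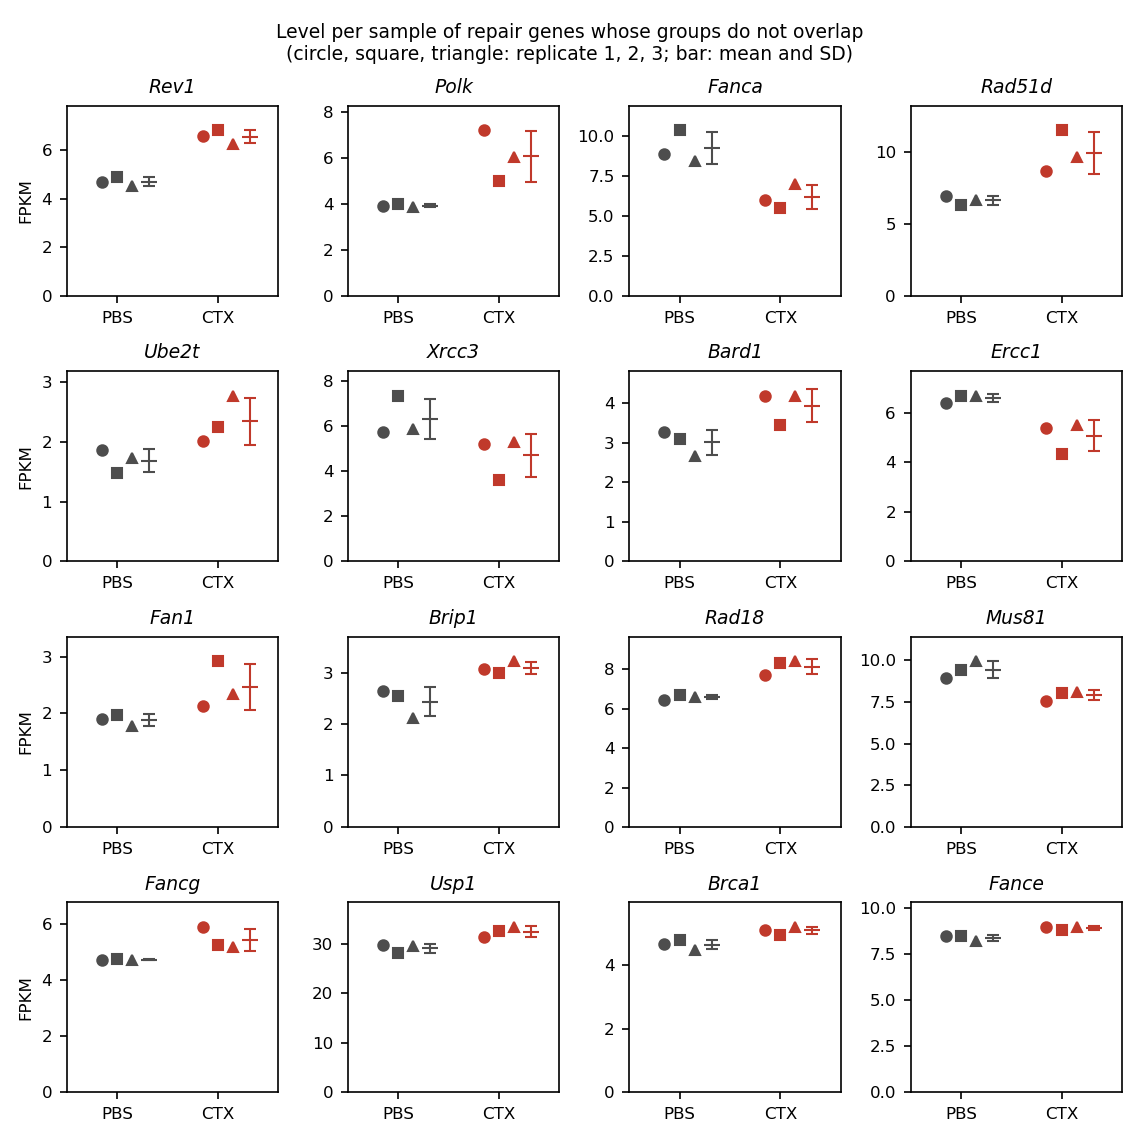
FPKM in each sample of the 16 genes described with full values whose groups do not overlap, PBS in grey and CTX in red, with mean and SD of 3 samples at the right of each group and every axis starting at 0. Rev1, Polk and Rad51d lie well above PBS in CTX, and Fanca lies below.

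Among the recombination paralogues and motors, which act at the strand exchange step, 1 gene was higher without overlap and 1 lower. Rad51d, at chr11:82876434-82890614 and a member of the BCDX2 complex, was at 6.89, 6.30 and 6.67 FPKM in PBS and at 8.65, 11.5 and 9.60 FPKM in CTX. All CTX samples were higher, with replicate 2 the highest. The log2 fold change was 0.57 (SE 0.12, limma adjusted p = 0.0790). It was 0.46 (adjusted p = 0.0456) without CTX replicate 2 and 0.66 (adjusted p = 0.0445) without CTX replicate 1. The limma adjusted p was 0.199 without CTX replicate 3 and 0.230 to 0.318 without any 1 PBS replicate.

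Xrcc3, which pairs with RAD51C, was at 5.73, 7.36 and 5.90 FPKM in PBS and at 5.20, 3.63 and 5.30 FPKM in CTX. CTX replicate 2 was the lowest sample, and the other CTX samples lay close under the lowest PBS sample. The log2 fold change was -0.43 (SE 0.18, limma adjusted p = 0.252) and -0.26 without CTX replicate 2. The remaining genes overlapped between groups, with log2 fold changes of 0.15 for Rad51c, 0.05 for Rad51b and 0.01 for Xrcc2, and of -0.01 for the DNA motor protein Rad54l and 0.09 for Blm, the helicase that dissolves joined strands. Their mean levels were 3.22 FPKM for Rad51c, 2.41 for Rad51b, 5.14 for Xrcc2, 3.30 for Rad54l and 3.95 for Blm. The sum of all 7 was 30.2 to 31.2 FPKM in PBS and 32.7 to 33.7 in CTX, but without Rad51d the groups overlapped at 23.6 to 24.3 and 21.2 to 24.1.

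All 5 genes of the BRCA proteins and partners had a fitted log2 fold change above 0, 0.26 at the median, and none passed the test. That of Palb2 was close to 0 and changed sign in other fits. A log2 fold change above 0 was found for 22 of the 37 genes and for 7034 of the 14463 genes tested. Bard1, whose product forms a ubiquitin ligase with BRCA1, was at 3.28, 3.09 and 2.66 FPKM in PBS and at 4.18, 3.46 and 4.19 FPKM in CTX. CTX replicate 2 was the lowest of its group and still above every PBS sample, and the log2 fold change was 0.38 (SE 0.13, limma adjusted p = 0.193). Brip1, a helicase bound by BRCA1 and also known as FANCJ, was at 2.64, 2.55 and 2.12 FPKM in PBS and at 3.08, 2.99 and 3.22 FPKM in CTX. Its CTX samples lay together above the more scattered PBS samples, and the log2 fold change was 0.34 (SE 0.12, limma adjusted p = 0.204). Brca1 was at 4.64, 4.76 and 4.47 FPKM in PBS and at 5.10, 4.95 and 5.19 FPKM in CTX. The gap between its groups was narrow, and the log2 fold change was 0.13 (SE 0.07, limma adjusted p = 0.363). Brca2, which acts with PALB2 in recombination, had a mean of 3.35 FPKM and a log2 fold change of 0.26 with overlapping groups, and Palb2, which joins BRCA1 to BRCA2, was the lowest gene of the list at a mean of 1.45 FPKM, with a log2 fold change of 0.00 (95% confidence interval -0.33 to 0.34). The 5 genes summed to 13.3 to 15.6 FPKM in PBS and 16.3 to 17.7 FPKM in CTX, and without Bard1 to 10.7 to 12.3 and 12.8 to 13.5 FPKM.

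In the ubiquitin cycle, Ube2t encodes the E2 enzyme that works with the core complex. It was at 1.86, 1.48 and 1.72 FPKM in PBS and at 2.01, 2.25 and 2.77 FPKM in CTX. CTX replicate 1 was close to PBS replicate 1 and CTX replicate 3 was the highest, and the log2 fold change was 0.45 (SE 0.16, limma adjusted p = 0.221). Usp1, the enzyme that removes ubiquitin from FANCD2 and from PCNA, was the most abundant gene of the list, at 29.7, 28.1 and 29.5 FPKM in PBS and 31.3, 32.6 and 33.4 FPKM in CTX. All CTX samples were above the PBS samples by a small margin, and the log2 fold change was 0.16 (SE 0.06, limma adjusted p = 0.235). Wdr48, the activating partner of USP1, had a mean of 7.27 FPKM and a log2 fold change of -0.05, and its groups lay just apart (7.26 to 7.59 FPKM in PBS, 7.09 to 7.22 in CTX). The 3 genes summed to 36.9 to 39.2 FPKM in PBS and 40.4 to 43.3 FPKM in CTX. Without Usp1 the groups overlapped, at 8.80 to 9.45 and 9.15 to 9.86 FPKM. The clamp that this cycle acts on overlapped between groups, with a mean of 4.59 FPKM for Fancd2 and 4.09 FPKM for Fanci. CTX replicate 2 had the lowest level of all 6 samples for both, 3.71 and 3.31 FPKM, and the remaining CTX samples were above every PBS sample. Their log2 fold changes were 0.06 and 0.01, and 0.22 and 0.16 without CTX replicate 2, with limma adjusted p of 0.250 and 0.386. Fancd2 and Fanci summed to 8.36 to 8.77 FPKM in PBS and 7.02 to 10.2 FPKM in CTX, which overlapped.

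The FA core complex is the ubiquitin ligase of the pathway, and Fanca, at chr8:123268300-123318576 and the partner of FANCG in it, had the most negative log2 fold change of the list. Fanca was at 8.88, 10.3 and 8.43 FPKM in PBS and at 6.01, 5.50 and 7.01 FPKM in CTX. Every CTX sample was below every PBS sample, and the log2 fold change was -0.57 (SE 0.12, limma adjusted p = 0.0894), or -0.49 without CTX replicate 2. It shares 10.5% of its exon bases with Zfp276 on the opposite strand. Zfp276 was at 8.41 to 9.65 FPKM in PBS and 5.93 to 6.35 FPKM in CTX and fell by 0.53 on the log2 scale (SE 0.08, limma adjusted p = 0.0359), and its part in the Fanca values was not tested.

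Fancg was at 4.70, 4.74 and 4.72 FPKM in PBS and at 5.89, 5.23 and 5.16 FPKM in CTX. The PBS samples were almost identical and all CTX samples higher, and the log2 fold change was 0.19 (SE 0.08, limma adjusted p = 0.266). Fance, also of the core complex, was at 8.46, 8.44 and 8.16 FPKM in PBS and at 8.95, 8.76 and 8.95 FPKM in CTX. The groups were apart by a small margin, and the log2 fold change was 0.09 (SE 0.06, limma adjusted p = 0.449). The other core genes overlapped between groups, with mean levels of 4.68 FPKM for Fancl, the catalytic subunit, 3.44 for Fancf, 2.69 for Fancb, 2.38 for the translocase Fancm and 1.56 for Fancc, and with log2 fold changes from -0.16 for Fancm to 0.08 for Fancb. The 8 genes summed to 37.0 to 37.9 FPKM in PBS and to 34.7 to 35.0 FPKM in CTX. Without Fanca the remaining 7 summed to 27.6 to 28.8 FPKM in PBS and 27.7 to 29.5 FPKM in CTX, which overlapped.

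The nucleases cut the crosslink out. Ercc1, the partner that holds ERCC4 on DNA, was at 6.40, 6.68 and 6.69 FPKM in PBS and at 5.39, 4.35 and 5.49 FPKM in CTX. All CTX samples were lower, replicate 2 the lowest, and the log2 fold change was -0.38 (SE 0.11, limma adjusted p = 0.155). Mus81, which cuts stalled and joined forks, was the third highest gene of the list, at 8.92, 9.40 and 9.93 FPKM in PBS and 7.56, 8.06 and 8.07 FPKM in CTX. All CTX samples were lower, and the log2 fold change was -0.25 (SE 0.07, limma adjusted p = 0.161). Fan1, a nuclease recruited by ubiquitinated FANCD2, differed in the other direction. It was at 1.90, 1.98 and 1.77 FPKM in PBS and at 2.14, 2.92 and 2.34 FPKM in CTX. CTX replicate 2 was the highest, and the log2 fold change was 0.36 (SE 0.15, limma adjusted p = 0.248), or 0.24 without CTX replicate 2. Slx4, the scaffold of these nucleases, Eme1, the partner of MUS81, and Ercc4 overlapped between groups, with mean levels of 4.48, 5.12 and 4.33 FPKM and log2 fold changes of -0.21, -0.21 and 0.07. Eme1 shares 10.7% of its exon bases with the more abundant Lrrc59 (108 to 128 FPKM) and Mrpl27 (32.9 to 40.7 FPKM) on the opposite strand. The 6 genes summed to 32.0 to 33.0 FPKM in PBS and 28.2 to 29.2 FPKM in CTX, and without Mus81 to 22.2 to 23.6 and 20.1 to 21.4 FPKM.

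**Figure D3:**
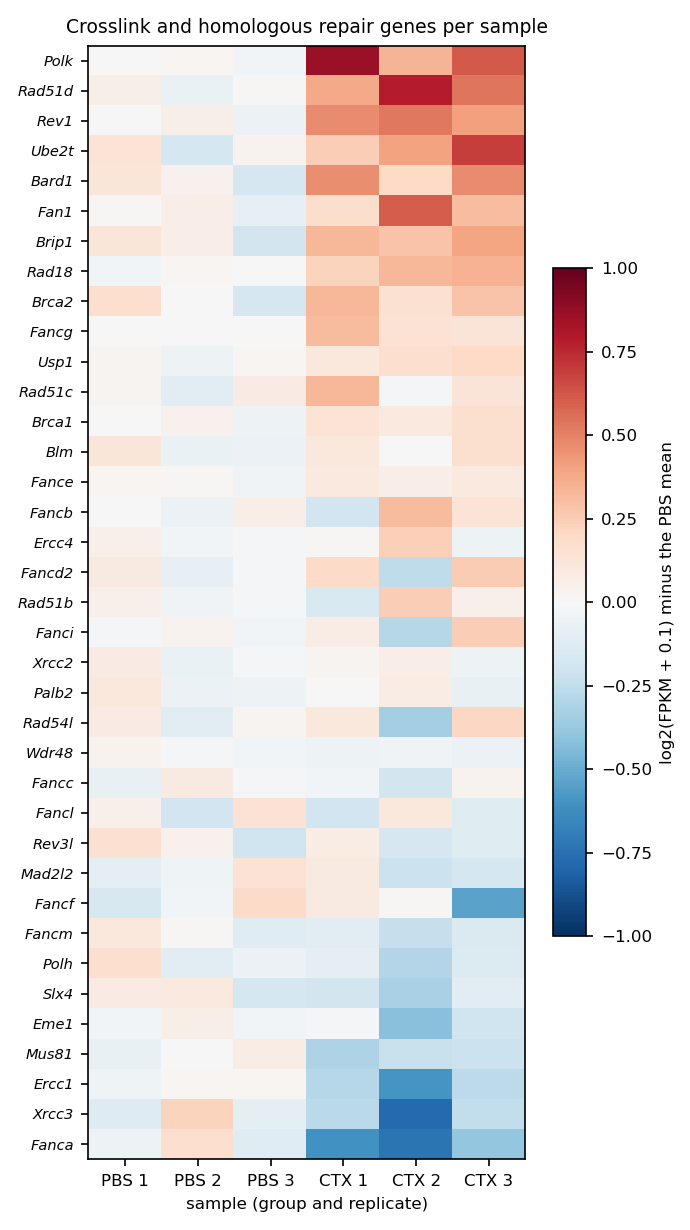
Level of the 37 genes in each sample as log2(FPKM + 0.1) minus the mean of the 3 PBS samples, ordered by fitted log2 fold change, with red above and blue below PBS. The largest departure is 0.86 on the log2 scale, and CTX replicate 2 differs from the other CTX samples for Fancd2, Fanci, Rad54l and Xrcc3.

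Many proteins of this pathway act in complexes with others of the list. The relative RNA level of 2 members of a complex was compared per sample as a description, without a test. The pairs were named from textbook complexes with the values known. Of 10 pairs, 3 ratios were higher and 3 lower in CTX without overlap, and 4 overlapped. How often ratios of other gene pairs lie apart was not tested, so these counts have no share over all genes beside them. The ratios of Mus81 to Eme1, Bard1 to Brca1 and Mad2l2 to Rev3l were among those that overlapped. Most of the ratios below restate in part a gene already described, namely Rad51d, Usp1, Fanca, Xrcc3 or Ercc1. The log2 ratio of Rad51d to Xrcc2, both of the BCDX2 complex, was 0.35 to 0.39 in PBS and 0.72 to 1.09 in CTX. The ratio of Usp1 to Wdr48 was 1.92 to 2.01 in PBS and 2.12 to 2.22 in CTX, and that of Brca2 to Palb2 was 0.90 to 1.08 and 1.10 to 1.38. The lower ratios were those of Fanca to Fancg, from a mean of 0.94 in PBS to 0.18 in CTX, of Xrcc3 to Rad51c, from 1.03 to 0.45, and of Ercc1 to Ercc4, from 0.63 to 0.19. The ratio of Ercc1 to Ercc4 was 0.54 to 0.68 in PBS and 0.33, -0.20 and 0.42 in CTX replicates 1, 2 and 3. Without CTX replicate 2 its CTX mean was 0.38. The difference from PBS was then -0.25, against -0.44 with that replicate, and the remaining CTX samples were below every PBS sample. The partners Fancd2 and Fanci kept close together, with a ratio of 0.01 to 0.24 in PBS and 0.15 to 0.25 in CTX, although both were lowest in CTX replicate 2.

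The promoter sequences of the list were read from a RefSeq table (GRCm38.p6), which held 38 starts for 32 of the 37 genes. Usp1, Rev3l, Rad51d, Xrcc2 and Fancd2 were not among them. The 250 bases before each start were searched on both strands for the NF-Y motif CCAAT and the GC box GGGCGG, which are common in promoters of replication and repair genes. CCAAT occurred before 18 of the 38 starts (47.4%), against 33.9% of 32851 promoters in the table, and GGGCGG before 21 (55.3%), against 32.7%. The E2F motif, TTTCCCGC or TTTGGCGC, occurred before 3 starts (7.89%, those of Bard1, Brca2 and Fancg), against 1.30%, and the cell-cycle motif TTTGAA before 1 (Bard1), against 15.99%. A p53 half-site occurred before 4 starts (10.5%, of Brip1, Fanca, Fancg and Polk), against 7.13%. The motifs can overlap each other, and a match describes the letters only. Many windows hold annotated exon bases, 174 of the 250 for Bard1 and 205 for Fancg, against 0 for Brca2. Windows of the same gene can also share bases, as those of Rad18, Rad51b and Rad54l do, and each start was counted.

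Ube2t, higher in every CTX sample, and Fanca and Xrcc3, lower in every CTX sample, are shown because they have the largest differences among the genes for which no listed window held an annotated exon base. Ube2t is given at chr1:134962315-134962564 (plus strand), Fanca at chr8:123318577-123318826 (minus strand) and Xrcc3 at chr12:111813880-111814129 (minus strand), 5′ to 3′ in the direction of the gene, with CCAAT and GGGCGG on either strand in capitals.
Ube2t: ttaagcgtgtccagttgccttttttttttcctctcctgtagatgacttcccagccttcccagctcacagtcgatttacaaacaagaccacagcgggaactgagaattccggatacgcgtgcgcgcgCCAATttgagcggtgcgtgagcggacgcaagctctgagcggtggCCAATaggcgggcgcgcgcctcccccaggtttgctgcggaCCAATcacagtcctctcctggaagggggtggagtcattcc
Fanca: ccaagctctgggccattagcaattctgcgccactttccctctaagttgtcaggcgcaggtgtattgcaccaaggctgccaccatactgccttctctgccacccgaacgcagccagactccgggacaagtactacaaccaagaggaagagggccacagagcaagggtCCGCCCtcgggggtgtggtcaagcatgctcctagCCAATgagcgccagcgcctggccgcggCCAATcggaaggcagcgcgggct
Xrcc3: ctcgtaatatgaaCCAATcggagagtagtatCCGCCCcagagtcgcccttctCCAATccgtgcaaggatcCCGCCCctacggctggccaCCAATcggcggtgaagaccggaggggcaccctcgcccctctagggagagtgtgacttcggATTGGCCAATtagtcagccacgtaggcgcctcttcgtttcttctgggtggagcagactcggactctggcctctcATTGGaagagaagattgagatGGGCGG
CCAAT stands 3 times before Ube2t, 2 times before Fanca and 6 times before Xrcc3, so genes on both sides of the comparison carry it. GGGCGG stands 0 times before Ube2t, 1 time before Fanca and 3 times before Xrcc3.

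The levels of other gene lists give the setting of these values. A list of 52 further genes of crosslink, recombination and bypass repair had 51 genes over the filter (Poln was under it). None had an adjusted p below 0.05 by limma or by limma's voom on the rebuilt reads. Without the adjustment 9 (17.6%) had a limma p below 0.05, against 19.6% of all genes tested. Of the 51, 13 (25.5%) were higher and 5 (9.80%) lower in CTX without overlap, against 15.0% and 14.1% of all genes tested. The median log2 fold change of the 51 was 0.05.

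Many of these repair genes are transcribed in S phase. Of 15 replication genes 14 had a positive log2 fold change, 0.26 at the median. Without overlap 8 (53.3%) were higher, against 15.0% of all genes tested. The 1 that passed the test, Cdt1, which licenses replication origins, rose by 0.54 on the log2 scale (limma adjusted p = 0.0263). All 15 genes of mitosis had a negative log2 fold change, -0.43 at the median. Without overlap 10 (66.7%) were lower, against 14.1% of all genes tested. None of the mitosis genes passed the test with limma, and 2 passed with voom. An unadjusted limma p below 0.05 was found for 8 (53.3%), against 19.6% of all genes tested. The mitosis genes summed to 401 to 416 FPKM in PBS, to 328 and 351 FPKM in CTX replicates 3 and 1 and to 229 FPKM in CTX replicate 2, which was the lowest CTX sample in 15 of 15 of them. Of the 37 repair genes CTX replicate 2 was the lowest CTX sample in 21 and the highest in 10, against 37.6% and 41.3% of all genes tested. The part of cell cycle phase in the values of the repair genes was not tested.

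Of 15 target genes of p53, the factor that DNA damage activates, 14 rose (limma adjusted p below 0.05), by 2.18 on the log2 scale at the median of the list. Pmaip1 and Phlda3, which act in cell death, had the largest log2 fold changes, 3.99 and 3.67. The smallest log2 fold change of that list, 0.81, exceeded the largest of the 37 repair genes.

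**Figure D4:**
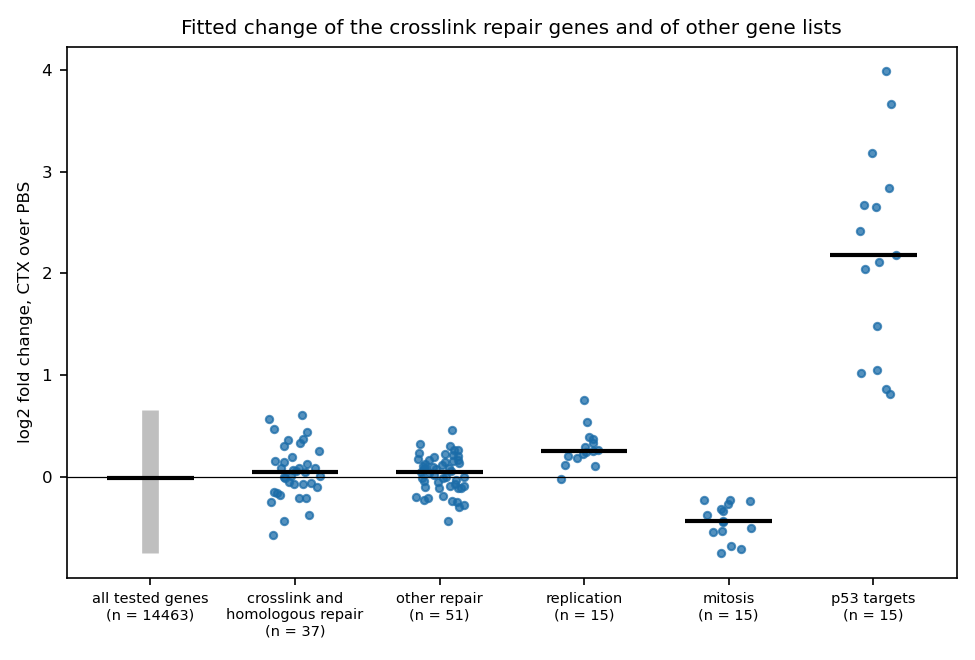
Fitted log2 fold change (CTX over PBS) of each gene of 5 lists, with the median as a black line, beside all genes tested, for which the grey bar spans the 5th to 95th percentile (-0.75 to 0.66). The crosslink and homologous repair genes lie around 0 within that bar, the mitosis genes below 0 and the p53 targets at 0.81 and above.

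The 12 genes that were higher without overlap were spread over 6 of the 7 roles, and the 5 lower ones over 4. Without CTX replicate 2 the number of genes higher without overlap was 17, against 19.2% of all genes tested, and that of lower ones stayed at 5, against 19.4%. The 5 genes that then joined the higher side were Fancd2, Fanci, Brca2, Rad51c and Rad54l, and the 12 others were those listed above.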

How the data were processed

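The 6 RNA-seq samples of GCs, 3 from the PBS group and 3 from the CTX group, were grouped by their labels, which give no batch. The authors deposited FPKM values per gene and sample. The submitters' processing notes name CASAVA 1.8, fastp, HISAT2 2.0.5, featureCounts 1.5.0-p3 and DESeq2 1.20.0 with the mm10 build, and library strand is not given in the sources used here. The deposited table also holds the authors' own comparison: their normalised signal per group, their log2 fold change and their p-value columns, none of which was used.

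FPKM multiplied by gene length gave whole multiples of 1 read in 100% of values (tolerance 0.05 reads), from which reads were rebuilt. Intervals of counting cover counting error only. FPKM values were compared with limma 3.58.1 (lmFit, eBayes with trend, R 4.3.3) on log2(FPKM + 0.1) for genes with a mean of at least 0.5 FPKM, which understates the change of low genes, and p-values were adjusted by Benjamini-Hochberg over all 14463 genes. Fold changes are on that scale. Coordinates of all 37 genes equal those of GENCODE M21 on GRCm38. Exon overlap was taken from the same annotation and promoters from RefSeq.

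The genes and lists were chosen with earlier results of these data known, and no list is independent support. Values are given per sample for genes with an adjusted p below 0.05, then for genes without overlap by size of change up to 16, and for the 3 highest, and at most 6 genes that passed are named from another list. Alternatives were other pseudocounts, filters and scalings, a replicate block, sample weights, eBayes without trend, voom on the rebuilt reads and leaving out each sample.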

Additional observations from a re-analysis of the deposited data

How the results depend on the processing

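None of the 37 repair genes was a DEG in any of the 17 other fits, and 25 of them, with all 16 described in full, kept the direction of their change in every fit they entered. The median log2 fold change of the list was 0.00 to 0.08 when 1 sample was left out. The number with an adjusted p below 0.05 was 0 without a filter, with 75th percentile scaling, with scaling to rebuilt reads and with eBayes without trend (11 or 12 had an unadjusted p below 0.05), and 19 with limma's arrayWeights. That fit gave CTX replicate 3 a weight of 16.6 and CTX replicate 2 one of 0.163, and 39.8% of all genes passed in it, as did 16 of the further repair genes, 12 replication genes and 9 mitosis genes. With the replicate number as a replicate block 0 repair genes passed (8 unadjusted), 0 replication genes and 9 of the p53 targets, and the number of DEGs among all genes was 50 against 139, although the numbers do not pair the samples, which came from different mice and whose deviations from the group means correlated at 0.06, 0.02 and 0.01 between same-numbered samples. With eBayes without trend 0 replication genes passed, and with voom 2 mitosis genes did.

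Leaving out 1 sample gave 0 to 3 repair genes with an adjusted p below 0.05 (3 without CTX replicate 2, where 3.65% of all genes passed), 0 to 2 replication genes and 0 to 2 mitosis genes, 12 to 17 repair genes higher without overlap and 5 to 9 lower (9 without CTX replicate 1). Of all genes tested 17.4% to 23.7% were then higher and 17.5% to 25.1% lower without overlap, with the highest of both shares without CTX replicate 1. A minimum mean of 5 FPKM left 15 repair genes, 7 of them higher without overlap (17.9% of all genes) and 5 lower (14.5% of all genes). With 75th percentile scaling and with scaling to rebuilt reads 8 were lower (17.2% and 18.2% of all genes), and these scalings put the median of all genes at -0.03 and -0.04. The cause of these differences was not tested. With 3 samples a group and 74 to 2234 reads per gene, the standard error of the log2 fold change ran from 0.06 for Usp1 to 0.19 for Fancf.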
